A study of Mus musculus with 16 samples.

Results

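The diet comparison that is common to wild-type and App knock-in oligodendrocytes was made by setting all high-fat-diet libraries against all control-diet libraries in 1 additive model, with genotype as a block. It used 15 of the 16 libraries of the study. The library App_NCD 553 was left out because 39.4% of its counts came from mitochondrially encoded genes, against 1.22% to 4.62% in the other 15. The deposited table lists 53801 genes. Enough counts for a test were found in 22322 of these, and 58 of them passed and moved the same way in both genotypes. These 58 genes are described here with their levels in every group.

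Oligodendrocytes were isolated by magnetic cell sorting from the brains of male mice, and their poly(A) RNA was sequenced from directional libraries. WT_NCD and WT_HFD are wild-type C57BL/6J Jcl mice on the normal control diet (CE-2, 12.5% of energy as fat, 345.0 kcal per 100 g) and on the high-fat diet (D12492, 60.0% of energy as fat, 524 kcal per 100 g). App_NCD and App_HFD are the homozygous App knock-in (allele NL-G-F/NL-G-F) on these diets. The knock-in puts a humanised amyloid-β sequence and the Swedish, Beyreuther/Iberian and Arctic mutations into the mouse's own App gene, so its product is made wherever App is expressed. The diets began at 2 months of age and lasted 6 months, so all mice were 8 months old. There were 4 libraries in each group, of which 3 were used in App_NCD. Values per library are given in the order of the replicate numbers, which are 4, 5, 11 and 12 in WT_NCD, 2, 3, 15 and 16 in WT_HFD, 537, 538 and 545 in App_NCD, and 547, 559, 560 and 561 in App_HFD. The wild-type mice were purchased and the knock-in mice were kept as an inbred line, so the genotype term also holds that difference in origin. The 2 diets differ in maker and recipe as well as in fat. The labels give no batch, litter, cage or hour of sampling, so p-values measure the spread between these mice only.

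Oligodendrocytes wrap axons in myelin, a membrane rich in cholesterol, galactolipids and long-chain fatty acids, and make much of this lipid themselves. In peripheral tissues a diet rich in fat supplies fatty acids, some of which can lower the expression of lipid-synthesis enzymes such as stearoyl-CoA desaturase. Obesity alters insulin and glucocorticoid signalling. The glucocorticoid receptor is a hormone-activated transcription factor that oligodendrocytes express.

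Library totals ran from 98588561 to 217925484 counts in WT_NCD, 90220118 to 101737328 in WT_HFD, 69772745 to 101709022 in App_NCD (3 libraries) and 64538297 to 84114322 in App_HFD, so the control-diet range reached higher within each genotype while the ranges overlapped. Haemoglobin genes took 0.929% of counts in WT_HFD 2 and 0.515% in WT_HFD 16, and at most 0.119% in the other libraries. Defining markers of the labelled cell type were abundant: the 30 myelin and mature oligodendrocyte genes summed to 47350 to 81590 CPM (counts scaled to a library total adjusted for composition) across the 15 libraries. Microglial RNA was present as well, with 15 homeostatic markers summing to 3268 to 7134 CPM in wild type and 9849 to 16490 CPM in the knock-in, and so was RNA of choroid plexus and astrocytes. In such bulk samples fewer cells of a type and less RNA per cell cannot be told apart. App itself had a diet effect of 0.02 ± 0.0996 on the log2 scale (edgeR, adjusted p = 0.979). In the same model App was lower in the knock-in, by -0.46 ± 0.1001 (SE, edgeR adjusted p = 0.00186). Its level does not check the genotype label, since the knock-in changes its sequence under its own promoter.

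High-fat feeding raised 54 genes and lowered 4 across the genotypes (edgeR quasi-likelihood test, Benjamini-Hochberg adjusted p under 0.05). The genes that rose include the cell-cycle inhibitor Cdkn1a, the insulin-receptor adaptor Sh2b2, adenosine deaminase (Ada), a regulatory subunit of protein kinase A (Prkar1b), β-III tubulin (Tubb3) and the lipase Pnpla2. Those that fell were the desaturase Scd1, Nyap2, Cd209f and the long non-coding gene Gm32468. The 58 genes are 0.26% of those tested, 0.242% for the higher and 0.0179% for the lower ones. Effects were moderate: the median log2 fold change of the 58 was 0.69, and 15 changed at least 2-fold, while the median over all 22322 genes was -0.01. At an unadjusted p under 0.05 there were 1989 genes, 1233 higher and 756 lower, so the excess of increases was less one-sided among weaker differences.

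Each of the 58 genes moved the same way in wild type and in the knock-in and had an unadjusted p under 0.05 in both. Both within-genotype effects enter the shared one, so these counts describe the called genes and are no separate test. Across all tested genes 258 (1.16%) met the same condition, 209 of them higher and 49 lower, while 13 had an unadjusted p under 0.05 in both genotypes with opposite signs. For 35 of the 58 genes every high-fat library lay beyond every control-diet library in both genotypes, a pattern that 88 of all tested genes (0.394%) showed. Within a single genotype edgeR called 0 genes: 1139 had an unadjusted p under 0.05 in wild type (smallest adjusted p = 0.277) and 1576 in the knock-in (smallest adjusted p = 0.0746), where DESeq2 called 49 and 116. Over all tested genes the wild-type and knock-in log2 fold changes, which share no library, had Pearson r = 0.236 and Spearman rho = 0.226, and r = 0.362 over the 10013 genes averaging 10 CPM or more. Genes are not independent replicates, so no p is given for these.

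**Figure D1:**
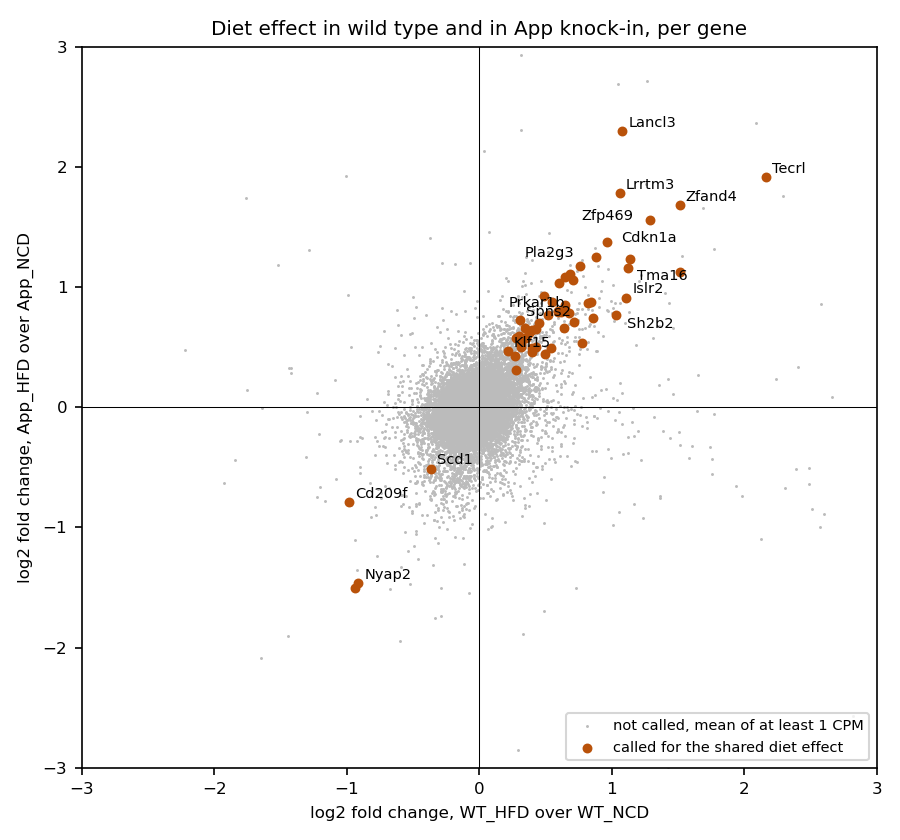
Log2 fold change of high-fat over control diet in wild type (x axis) and in the knock-in (y axis) for genes averaging 1 CPM or more (grey) and for the called genes (orange), with some names. The orange points lie in the upper right and lower left quadrants, Cyp2f2 and Adam28 (wild-type values over 3) and grey genes beyond the axes are not drawn, and the grey cloud is only weakly tilted (r = 0.236 over all tested genes).

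The interaction of diet and genotype was called for 0 of the 22322 genes by edgeR (smallest adjusted p = 1) and for 6 by DESeq2, and 614 genes (2.75%) had an unadjusted interaction p under 0.05. Among the 58 these were 9530077C05Rik, Spns2, Slc35e4, Klf15 and Lancl3, all with the larger effect in the knock-in. The log2 effect was larger in the knock-in for 46 of the 58 genes and larger in wild type for 12. The medians over the 58 were 0.77 in the knock-in and 0.60 in wild type. The same count was not made over all tested genes, so these values show nothing particular to the 58. The wild-type effects include WT_HFD 2, which stood on the high-fat side for 22 of the 58 genes, and App_NCD has 3 libraries. Spns2, which exports sphingosine-1-phosphate from cells, was among the 46. Its log2 fold change was 0.31 in wild type and 0.73 in the knock-in, a difference of 0.42 ± 0.148 (SE, adjusted p = 1). It was at 114, 119, 101 and 112 CPM in WT_NCD and at 119.9, 142, 144 and 145 CPM in WT_HFD. In App_NCD Spns2 was at 90.2, 88.8 and 92.7 CPM, and in App_HFD at 147, 134, 136 and 181 CPM. High-fat libraries were above control-diet libraries in both genotypes, and WT_HFD 2 was the one closest to its controls.

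The number of called genes depended strongly on single mice. WT_HFD 2 stood on the high-fat side of the gene's mean over the 15 libraries for 22 of the 58 genes, while the other 7 high-fat libraries did so for 49 to 57 and the control-diet libraries for 1 to 8. Without WT_HFD 2 edgeR called 308 genes, 194 higher and 114 lower, among them all 58, so the share of increases was 63.0% in place of 93.1%. Leaving out any other library gave fewer calls. The count was 22, 34, 19 and 24 without WT_NCD 4, 5, 11 and 12, and 4, 13 and 18 without WT_HFD 3, 15 and 16. It was 23, 7 and 10 without App_NCD 537, 538 and 545, and 12, 51, 23 and 17 without App_HFD 547, 559, 560 and 561. Prkar1b, Sh2b2, Ada and Cdkn1a were called in all 15, Tubb3, 2700046A07Rik and Gm43089 in 14, and the other 51 in 1 to 13.

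**Figure D2:**
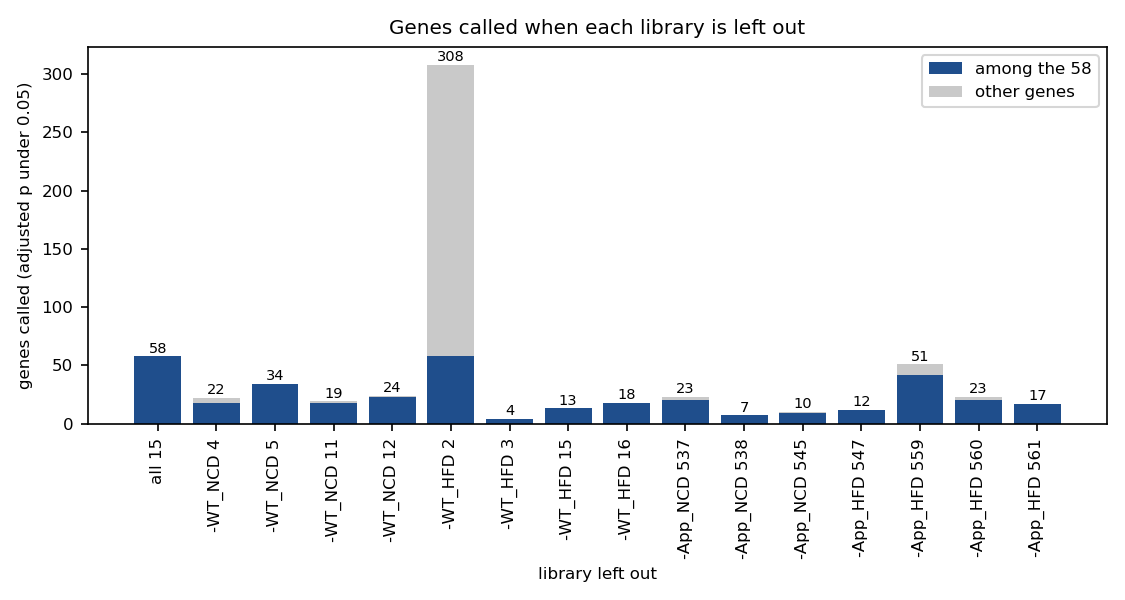
Genes called by edgeR (y axis) with all 15 libraries and with each library left out (x axis, the minus sign marks the library left out). Blue is the part of the bar among the 58 genes and grey is other genes. The bar without WT_HFD 2 reaches 308, while the other left-out libraries give 4 to 51.

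Other tests called more genes than edgeR. DESeq2 called 325 (266 higher, 59 lower), or 1.62% of the genes it gave an adjusted p, including all 58, and limma-voom with quality weights called 323. The 3 tests had 56 genes in common. The lowest sample quality weights were those of WT_NCD 11 (0.21) and App_NCD 537 (0.262), both on the control diet, while WT_HFD 2 had 0.646. WT_NCD 11 also had the lowest mitochondrially encoded share of the 15 libraries, 1.22%. With App_NCD 553 included edgeR called 9 genes. RNA of other cell types differed between the diets as well, with ranges that overlapped. A component built from the marker scores of 11 other cell types ran from 0.937 to 1.97 in WT_NCD and 1.707 to 3.617 in WT_HFD. It ran from -3.38 to -2.4 in App_NCD and -2.757 to -1.386 in App_HFD. Higher values stand for more fibroblast, vascular, neuronal, choroid plexus, astrocyte and blood-cell RNA and less microglial and border macrophage RNA. With this component as a covariate edgeR called 0 genes and 589 had an unadjusted p under 0.05. The component moved with genotype and diet, and its neuronal score includes the called gene Tubb3. Fewer calls were therefore likely whatever the source of the RNA, and this fit cannot decide whose RNA changed. The log2 fold changes of the 58 genes in that fit were 0.654 to 1.249 times those without the covariate (median 0.874).

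**Figure D3:**
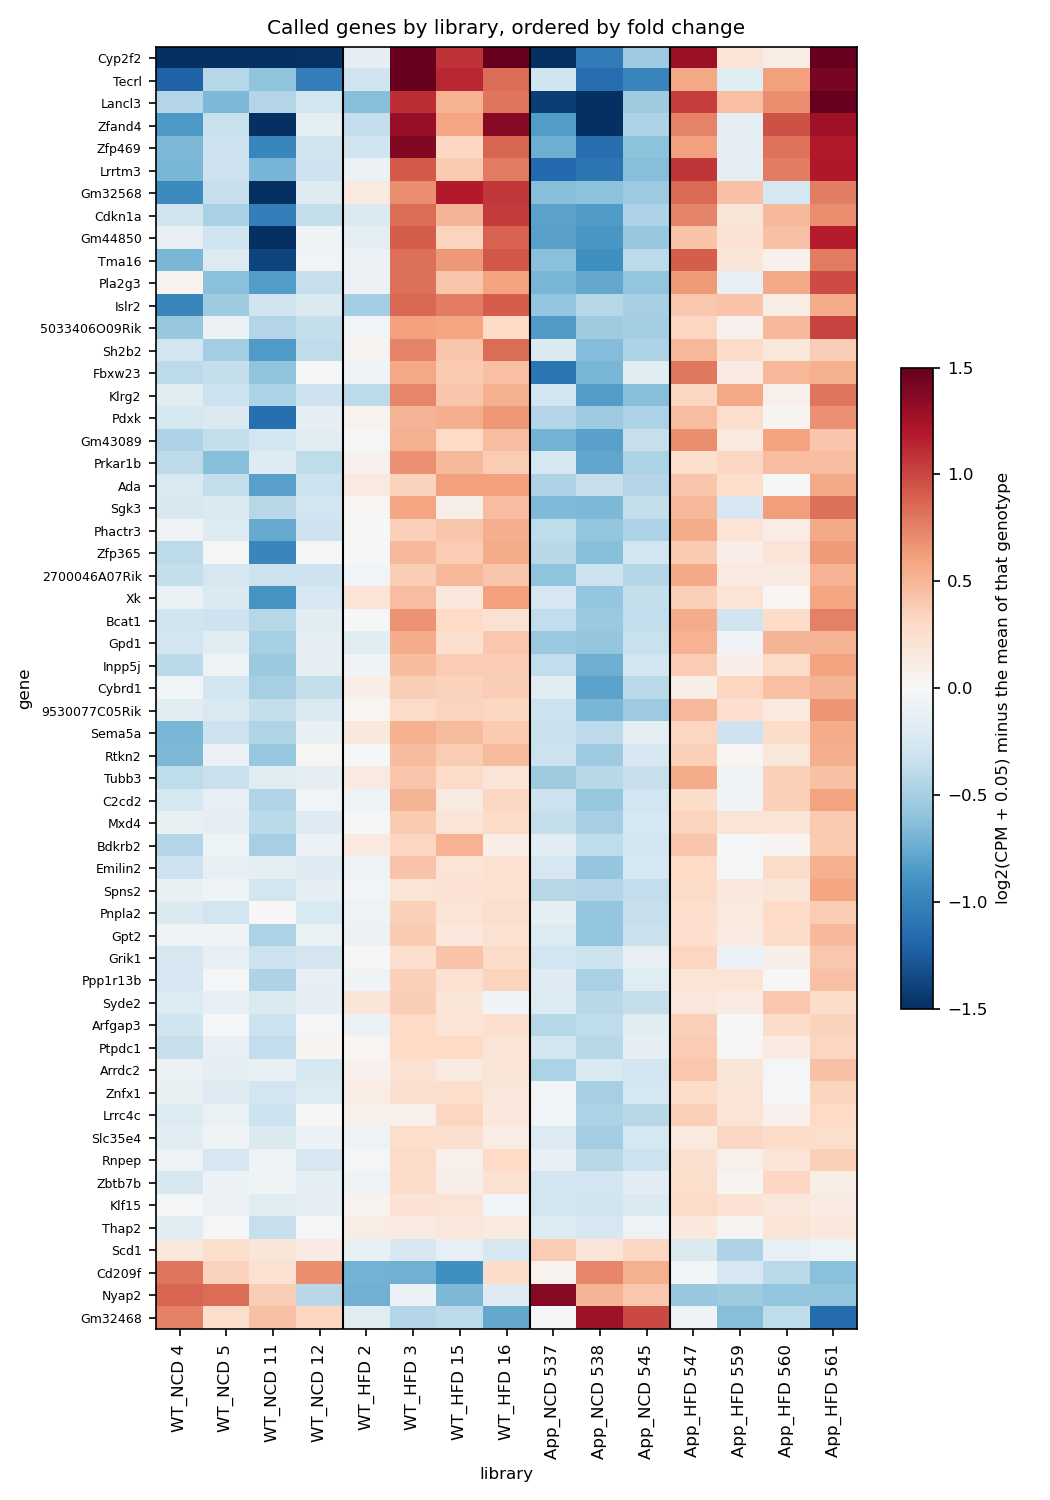
Level of the called genes (rows, ordered by fold change; Adam28, at 0 in most libraries, is left out) in each of the 15 libraries (columns), as log2(CPM + 0.05) minus the mean of the same genotype; red is above and blue below that mean, with the scale ending at 1.5. WT_HFD 2 is paler than the other high-fat libraries, and Cd209f, Nyap2, Scd1 and Gm32468 at the bottom run the other way.

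Cdkn1a, Sh2b2, Prkar1b and Ada, called in all 15 fits, each rose with no overlap between the diets of a genotype. Cdkn1a (ENSMUSG00000023067, mm10 chr17:29090976-29100727, plus strand) encodes p21, an inhibitor of cyclin-dependent kinases that p53 and glucocorticoid receptor are known to induce. It was at 115, 101, 69 and 110.5 CPM in WT_NCD and at 122, 253, 202 and 294 CPM in WT_HFD. In App_NCD Cdkn1a was at 127, 123 and 162 CPM, and in App_HFD at 371, 253, 311 and 361 CPM. All high-fat libraries exceeded all control-diet libraries of their genotype, with WT_HFD 2 barely above WT_NCD 4. The log2 difference came to 1.18 ± 0.166 (SE, adjusted p = 0.00963), or 2.27-fold, with 1.14 in wild type and 1.24 in the knock-in.

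Sh2b2 (mm10 chr5:136218147-136246556, minus strand) encodes an adaptor that binds the activated insulin receptor. It was at 26.3, 22.5, 17.9 and 24.8 CPM in WT_NCD and at 33.1, 53.8, 43.1 and 57.5 CPM in WT_HFD. In App_NCD Sh2b2 was at 41.8, 31 and 35.1 CPM, and in App_HFD at 68.8, 59.3, 54.4 and 62.6 CPM. The diet groups did not overlap in either genotype, and the log2 difference came to 0.91 ± 0.121 (SE, adjusted p = 0.00928). Prkar1b (mm10 chr5:139017306-139150001, minus strand) encodes a regulatory subunit of cAMP-dependent protein kinase. It was at 5.5, 4.63, 6.32 and 5.56 CPM in WT_NCD and at 7.58, 11.7, 10.2 and 9.45 CPM in WT_HFD. In App_NCD Prkar1b was at 8.17, 5.72 and 7.08 CPM, and in App_HFD at 11.8, 12.2, 13.5 and 13.6 CPM. Here too the groups were apart in both genotypes, and with 0.84 ± 0.105 (SE, adjusted p = 0.00928) it had the smallest p of all genes. Ada (mm10 chr2:163726584-163750239, minus strand) encodes adenosine deaminase, which turns adenosine into inosine. It was at 14, 12.8, 9.3 and 13 CPM in WT_NCD and at 17.9, 20.8, 25.1 and 25.1 CPM in WT_HFD. In App_NCD Ada was at 11.9, 13 and 12.1 CPM, and in App_HFD at 21.9, 19.8, 16.4 and 24.3 CPM. Ada levels on the control diet were alike in the 2 genotypes and those on the high-fat diet were all higher, with 0.80 ± 0.108 (SE, adjusted p = 0.00928).

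**Figure D4:**
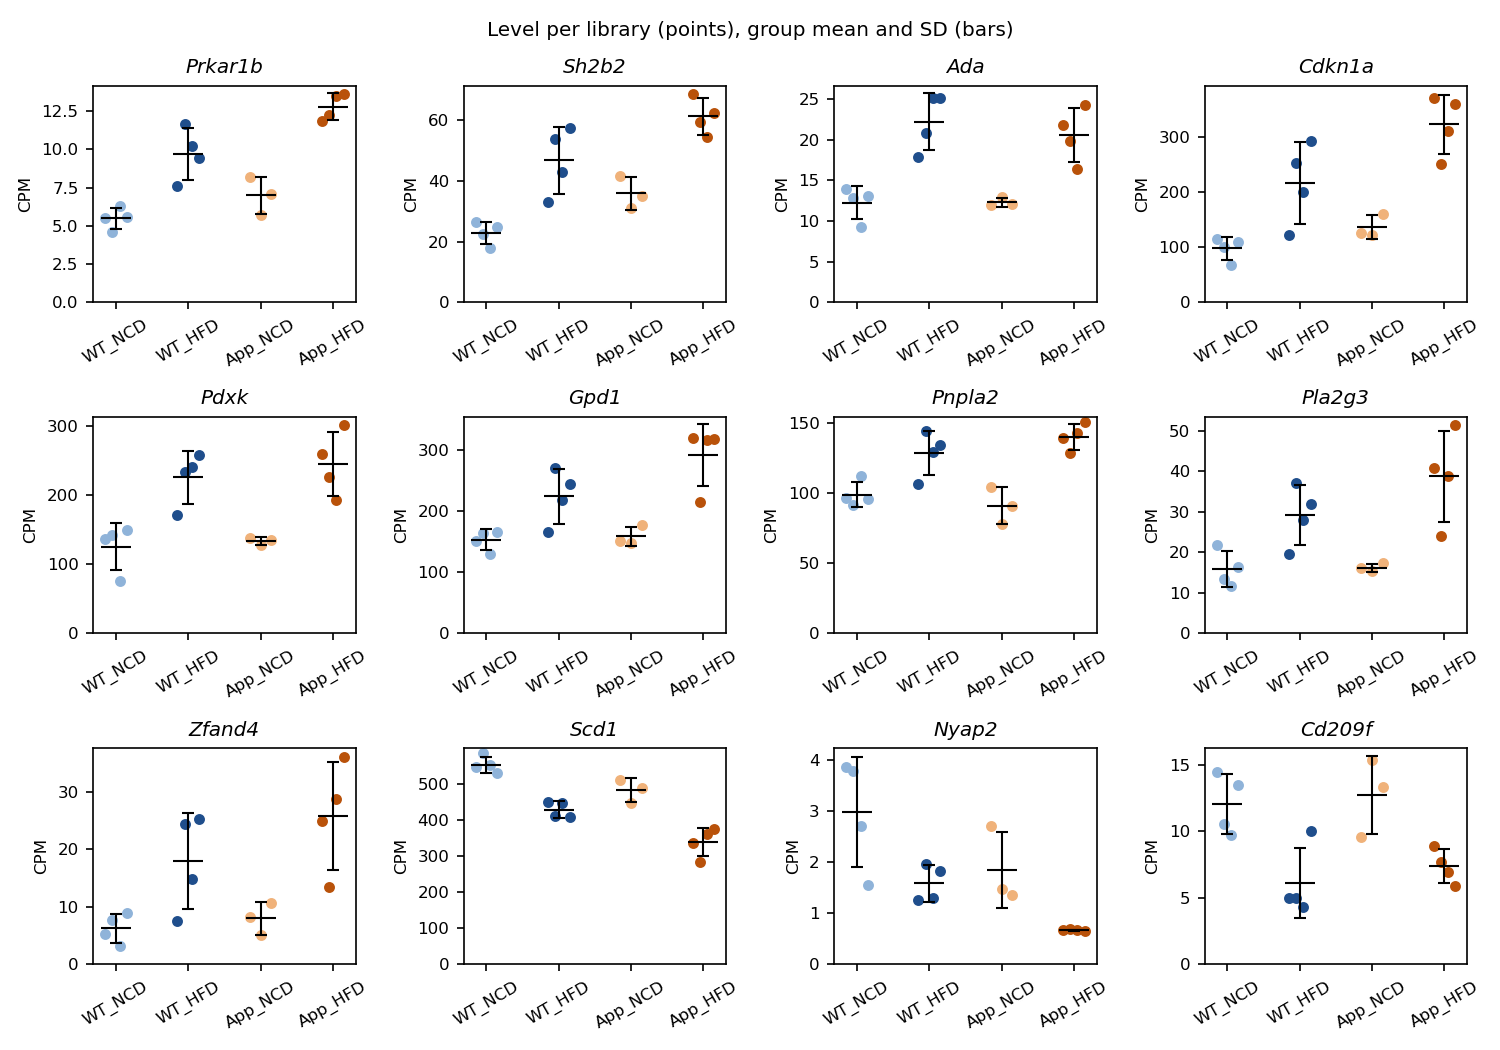
CPM (y axis, from 0) of 12 called genes in each group (x axis); points are libraries, the horizontal bar is the group mean and the error bar its SD (n = 4, and 3 in App_NCD). Prkar1b, Sh2b2, Ada and Cdkn1a in the top row have no overlap between diets within a genotype, while Scd1, Nyap2 and Cd209f in the bottom row are lower on the high-fat diet.

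The promoters of these 4 genes are shown because these genes were called in all 15 fits. They are the 250 bases before the RefSeq gene start (build GRCm38.p6, which is mm10), written 5′ to 3′ on the gene's own strand, for Prkar1b at chr5:139150002-139150251 (minus), Sh2b2 at chr5:136244941-136245190 (minus), Ada at chr2:163750240-163750489 (minus) and Cdkn1a at chr17:29090729-29090978 (plus). Capitals mark GC boxes (GGGCGG) in the first 3 and matches to the p53 half-site in Cdkn1a.
Prkar1b: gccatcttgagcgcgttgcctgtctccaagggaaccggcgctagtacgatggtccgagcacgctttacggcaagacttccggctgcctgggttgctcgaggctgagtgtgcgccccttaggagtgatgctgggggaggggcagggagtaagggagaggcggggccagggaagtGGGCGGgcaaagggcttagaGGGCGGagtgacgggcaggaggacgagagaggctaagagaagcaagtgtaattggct
Sh2b2: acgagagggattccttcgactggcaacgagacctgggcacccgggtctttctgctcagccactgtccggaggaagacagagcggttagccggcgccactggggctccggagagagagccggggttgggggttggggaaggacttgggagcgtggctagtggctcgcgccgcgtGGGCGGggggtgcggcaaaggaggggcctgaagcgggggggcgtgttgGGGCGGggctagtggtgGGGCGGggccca
Ada: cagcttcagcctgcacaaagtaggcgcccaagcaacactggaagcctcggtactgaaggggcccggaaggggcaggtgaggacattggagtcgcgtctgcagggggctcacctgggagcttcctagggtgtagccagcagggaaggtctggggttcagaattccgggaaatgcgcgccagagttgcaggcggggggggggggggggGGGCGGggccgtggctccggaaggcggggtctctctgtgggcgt
Cdkn1a: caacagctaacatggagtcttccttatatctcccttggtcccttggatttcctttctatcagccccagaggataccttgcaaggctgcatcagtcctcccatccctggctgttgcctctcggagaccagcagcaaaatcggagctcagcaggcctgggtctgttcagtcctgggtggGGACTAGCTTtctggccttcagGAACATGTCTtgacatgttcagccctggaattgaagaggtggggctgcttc

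Of the 58 genes 44 had a RefSeq promoter window (250 bases before to 50 after the start), which was set beside the 17386 windows of tested genes, searching both strands. The GC box GGGCGG was in 28 of the 44 (63.6%) and in 55.2% of all windows. The E-box CACGTG was in 6 (13.6%, in Klf15, Mxd4, Pdxk, Ptpdc1, Tma16 and Zfp365) against 8.95%, and the p53 half-site in 5 (11.4%, in 9530077C05Rik, Cdkn1a, Cyp2f2, Slc35e4 and Tubb3) against 7.33%. The glucocorticoid receptor half-site AGAACA was in 5 (11.4%) against 13.6%, and the full glucocorticoid response element in 0 against 0.173%. The forkhead site GTAAACA and the cAMP response element TGACGTCA were in 0 of the 44, and in 2.76% and 2.59% of all windows. These are letter matches in short windows and say nothing of binding.

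Among the 51 called genes with a proper symbol, 12 act in metabolism, of which 11 rose and Scd1 fell. These groups by role hold called genes only and were formed after the values were seen, so that with 93.1% of all called genes higher their counts by direction describe the groups and show nothing particular to a role, and many genes in them lie outside the rule for named genes given under the methods. Scd1 (mm10 chr19:44394455-44407879, minus strand) encodes stearoyl-CoA desaturase, which makes oleic acid from stearic acid. It was at 545, 584, 551 and 530.3 CPM in WT_NCD and at 449, 411, 446 and 407 CPM in WT_HFD. In App_NCD Scd1 was at 511, 448 and 488 CPM, and in App_HFD at 337, 284, 360.2 and 374 CPM. All 8 high-fat libraries, WT_HFD 2 included, were below the control-diet libraries of their genotype, and the log2 difference came to -0.43 ± 0.0687 (SE, adjusted p = 0.0172), or 0.741-fold. It was called in 11 of the 15 fits without a library.

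Pnpla2, the adipose triglyceride lipase that starts the breakdown of stored fat, was at 96.2, 91.7, 112 and 95.8 CPM in WT_NCD and at 107, 144, 129 and 134 CPM in WT_HFD. In App_NCD Pnpla2 was at 105, 77.7 and 91.1 CPM, and in App_HFD at 139, 128, 143 and 151 CPM. WT_HFD 2 lay within the WT_NCD range and all other high-fat libraries were above their controls, and the log2 difference came to 0.49 ± 0.0845 (SE, adjusted p = 0.029). Gpd1, the cytosolic glycerol-3-phosphate dehydrogenase that links glycolysis to glycerolipid synthesis, was at 152, 165, 130.3 and 166 CPM in WT_NCD and at 165, 270.3, 218 and 244 CPM in WT_HFD. In App_NCD Gpd1 was at 151, 148 and 177 CPM, and in App_HFD at 319, 215, 316 and 318 CPM. It rose by 0.70 ± 0.119 (SE, adjusted p = 0.0278) on the log2 scale, again with WT_HFD 2 among the controls. Pnpla2 and Gpd1 were each called in 4 of the 15 fits without a library.

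Pdxk, pyridoxal kinase, makes the active form of vitamin B6 that aminotransferases use as cofactor. It was at 136, 141, 75 and 149 CPM in WT_NCD and at 171, 233, 240.2 and 257 CPM in WT_HFD. In App_NCD Pdxk was at 138, 128 and 134 CPM, and in App_HFD at 259, 226, 193 and 301 CPM. The diet groups were apart in both genotypes, with 0.86 ± 0.138 (SE, adjusted p = 0.0181) on the log2 scale, although WT_NCD 11 was far below its group. Of the aminotransferases, Bcat1, which acts on branched-chain amino acids, rose by 0.70 ± 0.131 (SE, adjusted p = 0.0347) and Gpt2, the mitochondrial alanine aminotransferase, by 0.49 ± 0.098 (SE, adjusted p = 0.0492). Gpt2 ranged over 84 to 112 CPM in WT_NCD, 109 to 152 CPM in WT_HFD, 76.8 to 101 CPM in App_NCD and 127 to 163 CPM in App_HFD, so the wild-type groups overlapped.

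Pla2g3, a secreted phospholipase A2, was at 21.8, 13.5, 11.7 and 16.4 CPM in WT_NCD and at 19.6, 37.2, 27.9 and 31.9 CPM in WT_HFD. In App_NCD Pla2g3 was at 16.2, 15.3 and 17.3 CPM, and in App_HFD at 40.7, 24.1, 38.7 and 51.4 CPM. It rose 2.07-fold (1.05 ± 0.175 SE, adjusted p = 0.0265 on the log2 scale), and only WT_HFD 2 was within the control range. Cybrd1, a membrane ferric reductase, rose by 0.69 ± 0.119 (SE, adjusted p = 0.0306) and the aminopeptidase Rnpep by 0.40 ± 0.0736 (SE, adjusted p = 0.0321). At low levels, the cytochrome P450 Cyp2f2 ranged over 0.17 to 0.262 CPM in WT_NCD, 0.741 to 13.9 CPM in WT_HFD, 0.0595 to 0.302 CPM in App_NCD and 0.507 to 2.34 CPM in App_HFD. All its high-fat libraries were above the controls, but the single library WT_HFD 16 was far above the rest, and its log2 fold change of 3.73 ± 0.669 became 2.91 to 4.04 over the fits without a library. Tecrl, related to an enzyme of very-long-chain fatty acid synthesis, was under 1 CPM in all libraries and rose by 2.06 ± 0.366 (SE, adjusted p = 0.0321).

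The 8 called genes of signalling were all higher. Beside Sh2b2, Prkar1b and Spns2 they include Sgk3, a kinase downstream of phosphoinositide 3-kinase, at 99.2, 101, 87.6 and 95.8 CPM in WT_NCD and at 119.6, 176, 124 and 161 CPM in WT_HFD. In App_NCD Sgk3 was at 84.9, 84.1 and 105 CPM, and in App_HFD at 190.1, 113, 208 and 239 CPM. The groups of Sgk3 were apart in both genotypes, with 0.80 ± 0.144 (SE, adjusted p = 0.0321). Inpp5j, a phosphatase that removes the 5-phosphate of phosphoinositides, ranged over 41.3 to 57.4 CPM in WT_NCD, 58.4 to 84.3 CPM in WT_HFD, 39.3 to 54.1 CPM in App_NCD and 70.3 to 99.3 CPM in App_HFD, with 0.69 ± 0.108 (SE, adjusted p = 0.0172). Inpp5j and Pla2g3 overlap by 4976 bases on opposite strands of chromosome 11, and whether the counting used strand is not given in the sources used here, so reads of the 2 genes may not be fully separated. Bdkrb2, the B2 bradykinin receptor, rose by 0.52 ± 0.0984 (SE, adjusted p = 0.0359), the phosphatase Ptpdc1 by 0.44 ± 0.081 (SE, adjusted p = 0.0321) and the arrestin-domain gene Arrdc2 by 0.43 ± 0.0817 (SE, adjusted p = 0.0357).

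Of the 20 genes of the cell cycle list 0 were called by edgeR, DESeq2 or limma-voom and 0 passed unadjusted. The 8 called genes grouped under growth arrest and transcription were all higher. After Cdkn1a the smallest p was that of Mxd4, a MAX partner that opposes MYC, at 217, 215, 178 and 206 CPM in WT_NCD and at 230.3, 308, 269.8 and 288 CPM in WT_HFD. In App_NCD Mxd4 was at 187, 170.2 and 201 CPM, and in App_HFD at 304, 276, 276 and 315 CPM. High-fat libraries were above controls in both genotypes, with 0.53 ± 0.0789 (SE, adjusted p = 0.0128). Klf15, a transcription factor that glucocorticoids induce and that controls amino acid and glucose metabolism, ranged over 79.6 to 88.9 CPM in WT_NCD, 87.1 to 105 CPM in WT_HFD, 57.1 to 60.9 CPM in App_NCD and 77 to 86.1 CPM in App_HFD. Its knock-in groups were apart and its wild-type groups overlapped in WT_HFD 16, and it rose by 0.33 ± 0.0624 (SE, adjusted p = 0.0359) with 0.22 in wild type and 0.47 in the knock-in. Zfp365, a zinc finger protein that binds DISC1, rose by 0.73 ± 0.136 (SE, adjusted p = 0.0357), and Ppp1r13b, which encodes the p53-binding protein ASPP1, by 0.46 ± 0.0879 (SE, adjusted p = 0.036). Zfp469, listed as a long non-coding gene in the annotation used, rose by 1.41 ± 0.252 (SE, adjusted p = 0.0321) at 0.638 to 3.97 CPM. Smaller increases were those of Zbtb7b (0.34 ± 0.0678) and Thap2 (0.29 ± 0.0582), both zinc finger transcription factors, each with an adjusted p of 0.0484.

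Of the 11 called genes of the cytoskeleton, adhesion and neuronal proteins 10 were higher and 1 lower. Tubb3, a tubulin best known from neurons, was at 53.1, 55.1, 61 and 63.4 CPM in WT_NCD and at 76.2, 92.4, 84.7 and 79.7 CPM in WT_HFD. In App_NCD Tubb3 was at 48.2, 52.3 and 55 CPM, and in App_HFD at 102, 67.3, 89.4 and 95 CPM. The diet groups were apart in both genotypes, with 0.63 ± 0.0877 (SE, adjusted p = 0.00963) and 0.52 in wild type and 0.77 in the knock-in. Phactr3, a regulator of actin and of protein phosphatase 1, ranged over 113 to 185 CPM in WT_NCD, 190.1 to 279 CPM in WT_HFD, 126 to 145 CPM in App_NCD and 204 to 281 CPM in App_HFD and rose by 0.74 ± 0.115 (SE, adjusted p = 0.0172). Lrrtm3, a leucine-rich repeat protein of synapses, was at 1.76, 2.29, 1.74 and 2.29 CPM in WT_NCD and at 2.67, 5.47, 3.75 and 4.95 CPM in WT_HFD. In App_NCD Lrrtm3 was at 1.72, 1.81 and 2.49 CPM, and in App_HFD at 8.26, 3.56, 6.67 and 9.04 CPM. It rose 2.62-fold with 1.39 ± 0.221 (SE, adjusted p = 0.0172), and no high-fat library reached down to the controls.

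Further genes of this kind were Islr2, a neuronal membrane protein of axon guidance (1.02 ± 0.192 SE, adjusted p = 0.0357), the guidance cue Sema5a (0.66 ± 0.121 SE, adjusted p = 0.0321), the netrin-G ligand Lrrc4c (0.41 ± 0.0828) and Grik1, a kainate receptor subunit (0.47 ± 0.093). Rtkn2 (0.65 ± 0.118), Syde2 (0.45 ± 0.082) and the matrix protein Emilin2 (0.51 ± 0.0934) also rose. Nyap2, an adaptor of phosphoinositide 3-kinase in neurons, changed by -1.16 ± 0.215 (SE, adjusted p = 0.0347) on the log2 scale. It was at 3.86, 3.78, 2.71 and 1.55 CPM in WT_NCD and at 1.25, 1.96, 1.29 and 1.82 CPM in WT_HFD. In App_NCD Nyap2 was at 2.7, 1.47 and 1.36 CPM, and in App_HFD at 0.671, 0.685, 0.665 and 0.656 CPM. The knock-in groups were apart, while WT_NCD 12 lay among the high-fat libraries of wild type.

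Neuronal markers had positive fold changes beside these genes. Of 15 neuronal markers edgeR called 1, Tubb3, DESeq2 called 3 (Tubb3, Snap25 and Stmn2, all higher) and limma-voom called 2. At an unadjusted p under 0.05 there were 4 higher and 0 lower. All 15 had a positive shared log2 fold change, but only 8 had the same sign in both genotypes. Over all tested genes 58.4% had the same sign. The median of the 15 was 0.28 (0.34 in wild type and 0.22 in the knock-in) against -0.01 over all genes. Their sum was 71.6 to 86.4 CPM in WT_NCD, 102 to 118 CPM in WT_HFD, 67.7 to 73.9 CPM in App_NCD and 87.4 to 123 CPM in App_HFD, most of it Tubb3 (48.2 to 102 CPM). Of the 15 markers 8 had a mean under 1 CPM, with Slc17a6 at 0 in some libraries, and after Tubb3 the highest was Syn1, a synaptic vesicle protein, with a mean of 8.25 CPM. Snap25, a synaptic vesicle fusion protein, had 0.66 ± 0.18 (SE, adjusted p = 0.175) in edgeR and Stmn2, a growth-cone protein, 0.91 ± 0.203 (SE, adjusted p = 0.082). The part of neuronal RNA in the increases of this group was not tested.

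Of 4 called genes grouped under immune roles 3 rose and 1 fell. Cd209f, a lectin of the DC-SIGN family that macrophages carry, was at 14.4, 10.5, 9.73 and 13.5 CPM in WT_NCD and at 5.02, 5.01, 4.34 and 10 CPM in WT_HFD. In App_NCD Cd209f was at 9.56, 15.3 and 13.3 CPM, and in App_HFD at 8.91, 7.72, 6.94 and 5.91 CPM. WT_HFD 16 lay just above WT_NCD 11 and the knock-in groups were apart, and the log2 difference came to -0.89 ± 0.175 (SE, adjusted p = 0.0453). The related lectin Cd209g was just outside the threshold (-0.99 ± 0.202 SE, adjusted p = 0.0569). The 8 border macrophage markers, of which 0 were called by edgeR, 2 were lower unadjusted and 1 (Pf4, lower) was called by DESeq2, had 0 positive log2 fold changes and a median of -0.28, and summed to 805 to 1284 CPM in WT_NCD, 539 to 995 CPM in WT_HFD, 875 to 1337 CPM in App_NCD and 881 to 1068 CPM in App_HFD. Whether the fall of Cd209f is that of macrophage RNA was not tested.

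Znfx1, a helicase that senses double-stranded RNA, rose by 0.43 ± 0.0726 (SE, adjusted p = 0.0278) with ranges of 108 to 122 CPM in WT_NCD, 143 to 159 CPM in WT_HFD, 124 to 171 CPM in App_NCD and 174 to 222 CPM in App_HFD. The lectin Klrg2 rose by 0.87 ± 0.171 (SE, adjusted p = 0.0466). Adam28, a metalloprotease of lymphocytes, was called (adjusted p = 0.0466) although most libraries had few or no counts. It was at 0 in 6 of the 7 control-diet libraries and at 0.00895 CPM in WT_NCD 4. Under high-fat feeding its levels were 0.0501, 0.139, 0.0611 and 2.11 CPM in WT_HFD and 0, 0.185, 0 and 0.215 CPM in App_HFD. WT_HFD 16, the highest, had 200 counts and also the highest lymphocyte and neutrophil marker score of its group. In App_HFD that score was highest in 547, where Adam28 was at 0, and the relation was not tested. No fold change of Adam28 is given because it would rest on the prior count.

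The 8 remaining genes with a proper symbol all rose. Zfand4, an AN1-type zinc finger protein, was at 5.36, 7.74, 3.26 and 8.91 CPM in WT_NCD and at 7.62, 24.4, 14.8 and 25.2 CPM in WT_HFD. In App_NCD Zfand4 was at 8.28, 5.06 and 10.7 CPM, and in App_HFD at 24.9, 13.5, 28.8 and 36 CPM. It rose 3.02-fold with 1.59 ± 0.294 (SE, adjusted p = 0.0357), WT_HFD 2 lying within the WT_NCD range. Tma16, a factor of ribosome assembly, was at 45.6, 63.6, 28.1 and 71.1 CPM in WT_NCD and at 68.9, 130.4, 115 and 140.3 CPM in WT_HFD. In App_NCD Tma16 was at 59.3, 48.7 and 70 CPM, and in App_HFD at 173, 104, 95.8 and 158 CPM. The knock-in groups were apart, WT_HFD 2 was just below WT_NCD 12, and the log2 difference came to 1.14 ± 0.204 (SE, adjusted p = 0.0321). Lancl3, a relative of lanthionine synthetase C, rose by 1.61 ± 0.321 (SE, adjusted p = 0.0484) at 0.235 to 2.98 CPM. Xk, the partner of a lipid transfer protein, rose by 0.71 ± 0.128, Fbxw23, an F-box gene annotated as a pseudogene, by 0.88 ± 0.151, C2cd2 by 0.57 ± 0.109, the Golgi protein Arfgap3 by 0.45 ± 0.0853 and the transporter Slc35e4 by 0.41 ± 0.075.

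The 7 called genes with clone or model names gave 6 that rose and 1, Gm32468, that fell. Gm44850 is annotated as antisense and Gm43089 as a processed pseudogene, so the reads of both are uncertain. Called genes also lay next to each other. With a distance of at most 50 kb there were 5 pairs: Xk and Lancl3 (4.67 kb apart on chromosome X, same strand), Gm43089 and Fbxw23 (6.84 kb, chromosome 9, same strand), Gm32568 and Tma16 (8.53 kb, chromosome 8, opposite strands), 5033406O09Rik and Ppp1r13b (33.9 kb, chromosome 12), and the overlapping Inpp5j and Pla2g3. In all, 180 tested genes lay within 50 kb of a called gene, of which 10 (5.56%) were called, against 0.26% of all tested genes. Of the 170 that were not called, 26 (15.3%) were higher at an unadjusted p under 0.05 and 2 (1.18%) were lower, against 5.52% higher among all tested genes. Gm32568, on the strand opposite to Tma16, was at 2.34, 3.6, 1.5 and 4.01 CPM in WT_NCD and at 5.1, 7.45, 10.5 and 9.62 CPM in WT_HFD. In App_NCD Gm32568 was at 3.12, 3.17 and 3.35 CPM, and in App_HFD at 8.87, 6.67, 4.07 and 8.4 CPM. Its groups were apart in both genotypes and it rose by 1.34 ± 0.224 (SE, adjusted p = 0.0265). These pairs were looked for after the calls were known.

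Of the pathway lists, that of 20 glucocorticoid-responsive genes had the highest median log2 fold change, 0.32 (0.23 in wild type and 0.39 in the knock-in). Cdkn1a and Klf15 were called by edgeR, 2 of 20, 11 were higher at an unadjusted p under 0.05 and 0 lower, and 18 of the 20 were positive and 18 had the same sign in both genotypes. Over all tested genes 46.7% were positive and 58.4% had the same sign in both genotypes, which is the background for the counts of positive members in every list. The background for the unadjusted counts of every list is 1989 of 22322 genes, 1233 of them higher (5.52% of those tested) and 756 lower. DESeq2 called 5, the other 3 being Plin4, a lipid droplet protein (0.93 ± 0.215 SE, adjusted p = 0.0977 in edgeR), Zbtb16, a transcription factor (0.76 ± 0.226 SE, adjusted p = 0.23), and Errfi1, an inhibitor of the EGF receptor (0.51 ± 0.108 SE, adjusted p = 0.0666). The classical targets Fkbp5, a co-chaperone of the receptor, and Tsc22d3, also known as GILZ, had 0.49 ± 0.151 (SE, adjusted p = 0.243) and 0.28 ± 0.103 (SE, adjusted p = 0.383). Nr3c1, the receptor itself, had -0.07 ± 0.0534, and Dusp1, another target, -0.01 ± 0.126. Cdkn1a is also among the 20 genes listed for disease-associated oligodendrocytes, of which it alone was called by edgeR (median 0.09).

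In the lipid lists edgeR called Scd1 and Pnpla2. Of 24 genes of fatty acid synthesis, elongation and desaturation Scd1 alone was called, and the median was -0.07. Of 17 lipid droplet and lipolysis genes Pnpla2 alone was called by edgeR and Plin4 and Lipe, the hormone-sensitive lipase (0.34 ± 0.0856 SE, adjusted p = 0.14), by DESeq2 as well. At an unadjusted p under 0.05 there were 7 higher and 1 lower, and the median was 0.05. Plin3, a droplet coat protein, had 0.29 ± 0.0879 (SE, adjusted p = 0.237) and Dgat2, which makes triglyceride, 0.30 ± 0.0878 (SE, adjusted p = 0.211), while Plin2 had -0.15 ± 0.129. Among 25 genes of cholesterol synthesis and uptake 4 were positive and the median was -0.12. EdgeR called 0 of them, 7 were lower and 0 higher at an unadjusted p under 0.05, and DESeq2 called 2 lower, among them Nsdhl, a sterol synthesis enzyme (-0.23 ± 0.0639 SE, adjusted p = 0.185 in edgeR). Fatty acid oxidation (30 genes, 0 called by any of the 3 tools, 0 unadjusted, median -0.03), LXR targets (19 genes, 0 called by any of them, 1 unadjusted, median -0.03) and PPAR targets (21 genes, Pnpla2 called, 4 higher and 0 lower unadjusted, median -0.05) had medians near that of all genes.

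Insulin and IGF signalling (28 genes, 0 called by edgeR, 6 unadjusted) had a median of -0.01. DESeq2 called Irs2, the insulin receptor substrate (0.27 ± 0.065 SE, adjusted p = 0.108 in edgeR), and Igfbp3 (0.91 ± 0.247 SE, adjusted p = 0.178), both higher. By edgeR 0 genes were called among circadian clock (20), immediate early (19), heat shock (20), endoplasmic reticulum stress (28), interferon and MHC class I (31), oxidative phosphorylation (40), ribosomal protein (77) and sphingolipid synthesis (23) genes, and their medians lay between -0.09 and 0.05. Unadjusted p under 0.05 was met by 2, 1, 0, 3, 2, 0, 0 and 2 of them in that order. By DESeq2 the sphingolipid list had 1 lower gene (Sptlc3) and the others 0. Glycolysis (20) and inflammation (27), with 0 called by edgeR, 2 unadjusted and 1 by DESeq2 in each (Slc2a1 higher, Ccl7 lower), had medians of -0.11 and -0.14. Iron transport (18), cell cycle (20) and mitochondrially encoded genes (13) had 0 called by edgeR, DESeq2 or limma-voom, 0 unadjusted, and medians of -0.02, 0.09 and -0.05.

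**Figure D5:**
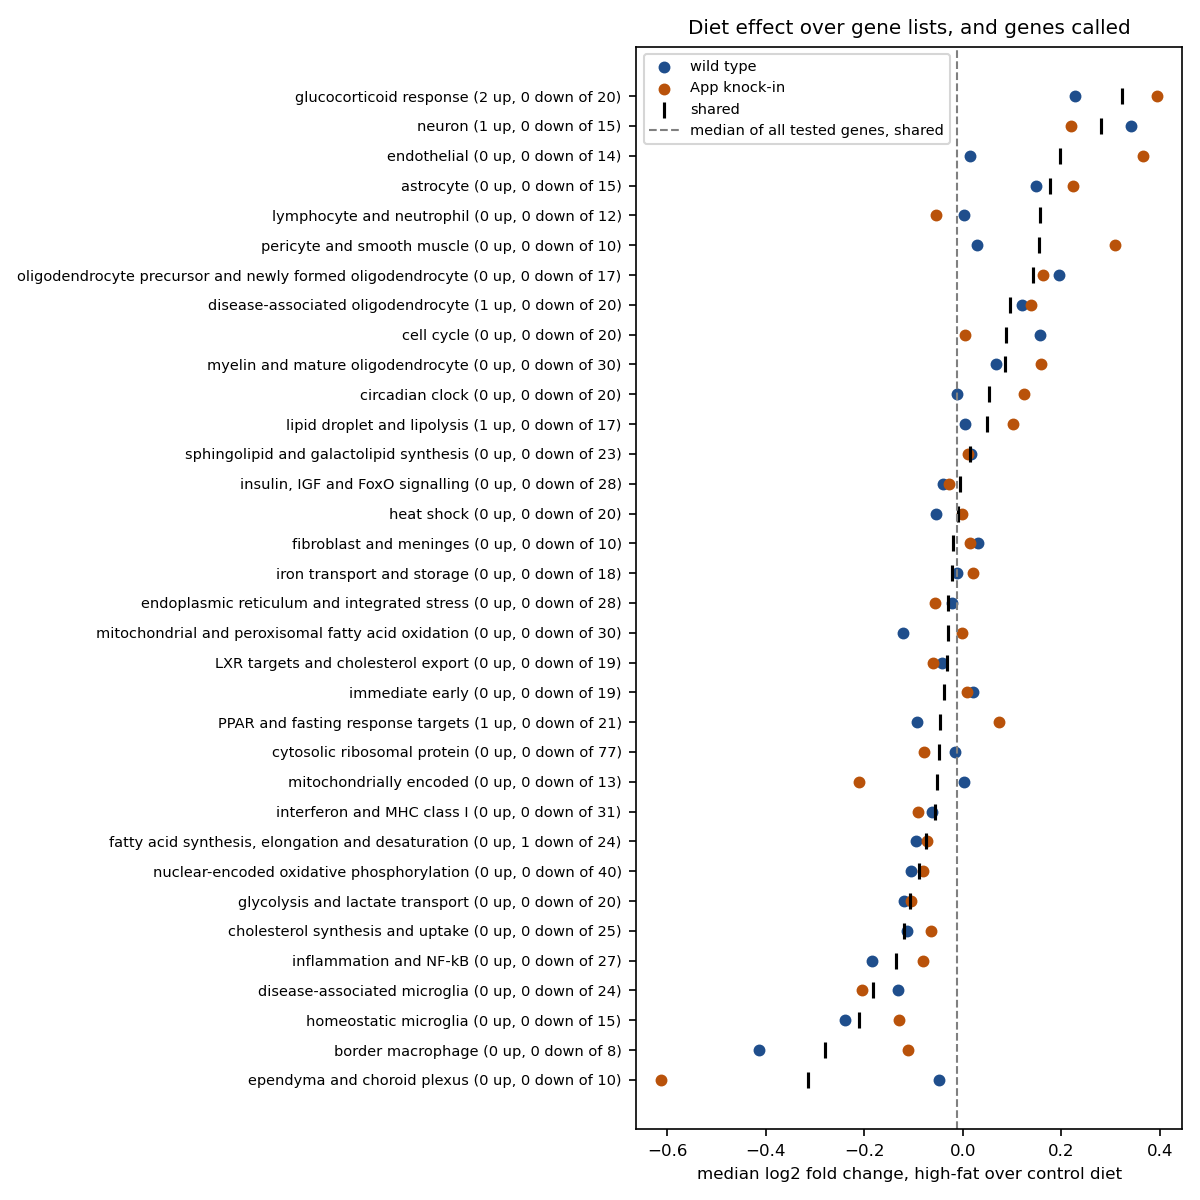
Median log2 fold change of high-fat over control diet (x axis) for each gene list (rows, with the number of genes called higher and lower by edgeR and the number tested), in wild type (blue), in the knock-in (orange) and shared (black tick); the dashed line is the median of all tested genes, -0.01. The glucocorticoid list is highest at 0.32 and the ependyma and choroid plexus list lowest at -0.31; the erythroid list (wild type 2.51, knock-in -0.85) is beyond the axis and not drawn.

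Myelin genes, the main product of the sorted cells, were not called by edgeR, DESeq2 or limma-voom (0 of 30). At an unadjusted p under 0.05 there were 5 higher and 0 lower, and 21 of the 30 were positive with a median of 0.09. The 17 precursor and newly formed oligodendrocyte genes had 15 positive values and a median of 0.14, with 0 called by edgeR, 5 higher unadjusted and Neu4 called by DESeq2. The sign was the same in both genotypes for 22 of the 30 myelin and 9 of the 17 precursor genes, against 58.4% of all tested genes. Lists of other cells had medians of either sign with 0 called by edgeR: 0 of 15 homeostatic and 1 of 24 disease-associated microglial markers were positive (medians -0.21 and -0.18), while 14 of 15 astrocyte and 12 of 14 endothelial markers were (medians 0.18 and 0.20, the endothelial one 0.01 in wild type and 0.37 in the knock-in). Homeostatic microglial markers summed to 4381 to 7134 CPM in WT_NCD and 3268 to 6157 CPM in WT_HFD, and to 12620 to 15060 CPM in App_NCD and 9849 to 16490 CPM in App_HFD, so the diet groups overlapped. The sign was the same in both genotypes for 12 homeostatic and 19 disease-associated microglial, 12 astrocyte and 8 endothelial markers. Unadjusted, 0 homeostatic and 3 disease-associated microglial, 2 astrocyte and 2 endothelial markers passed, and DESeq2 called S100b of astrocytes and Slc2a1 of endothelium. Pericyte (10, 1 unadjusted, median 0.16), fibroblast (10, 0 unadjusted, median -0.02) and erythroid markers (5, 0 unadjusted, median 0.94) had 0 called by edgeR. Lymphocyte and neutrophil markers (12, 1 unadjusted, median 0.16) also had 0. The 10 ependyma and choroid plexus markers had 0 called by edgeR, 2 higher and 3 lower unadjusted, and a median of -0.31. Among these lists DESeq2 called 1 gene, Tmem212 of ependyma, which was higher. The part of such shifts in the 58 genes was not tested, as the fit with the other-cell component cannot decide it.

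The genotype effect of the same model was called for 7555 genes (33.8%), and for 13 of the 58. Of these Prkar1b, Sh2b2, Cdkn1a, Znfx1 and Rnpep were higher in the knock-in, and Scd1, Syde2, Slc35e4, Nyap2, Arrdc2, Islr2, Klf15 and Gm32468 were lower. Cdkn1a was thus at 98.9 ± 20.8 CPM in WT_NCD and 324 ± 54.3 CPM in App_HFD (SD, n = 4 each), the group means at the ends of its range. Scd1 went from 552 ± 22.5 to 339 ± 39.3 CPM over the same groups. For the other 45 genes a genotype difference was not called.

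Some genes had diet effects of opposite sign in the 2 genotypes, with 0 called for the interaction by edgeR. Nos1, neuronal nitric oxide synthase, had a log2 fold change of 0.38 in wild type and -0.72 in the knock-in, a difference of -1.10 ± 0.205 (SE, edgeR adjusted p = 1). The clock repressor Cry1, named after its values were seen, had -0.26 in wild type and 0.34 in the knock-in. The immunoglobulin genes Igha and Igkv6-13, with means of 1.19 and 1.2 CPM, also had opposite signs. Their differences were -10.4 ± 2.28 and -15.6 ± 3.39 (SE), which are uncertain at such levels. Igkv6-13 also belongs to a family of closely similar genes, so its counts are uncertain.

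The threshold divided genes with like values. Just inside it were Thap2, Lrrc4c and Zbtb7b (adjusted p = 0.0484 each) and Gpt2 (0.0492), and just outside it Fam117b and BC051019 (0.0511 each), Cd209g, Wnt3 and Map7d2 (0.0569). Map7d2, a microtubule-associated protein, had a log2 fold change of 0.89 ± 0.182 and Wnt3, a secreted signalling protein, of 0.46 ± 0.0941.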

How the data were processed

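Poly(A) RNA of sorted oligodendrocytes from 16 mice was measured. The deposited table holds estimated counts per gene, which per the submitters' processing notes came from a pipeline naming fastp 0.23.2, HISAT2 2.2.1, StringTie 2.2.1, bedtools 2.25.0 and build mm10. Their roles, the annotation and the strand setting are not given in the sources used here. Such estimates follow coverage and may share out reads among genes that overlap or resemble each other. All values were whole numbers, so rounding changed nothing. Of 53801 gene IDs 53620 (99.66%) were in GENCODE release M21, used for coordinates and biotypes.

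From these counts, filterByExpr left 22322 genes, TMM scaled the libraries, and edgeR 4.0.16 (limma 3.58.1, R 4.3.3) fitted genotype plus diet with robust quasi-likelihood dispersions on 15 libraries, with 12 residual degrees of freedom and a biological coefficient of variation of 26.2%. Within-genotype effects and the interaction came from a fit with 4 groups. Benjamini-Hochberg adjustment ran over all tested genes with a threshold of 0.05. Each standard error is the absolute log2 fold change over the root of F. CPM uses TMM-adjusted totals. List scores average log2 CPM (prior count 0.5). The procedure was tested on simulated data.

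The alternatives comprised DESeq2 1.42.0, limma-voom (weighted by sample quality), other scalings, filters, dispersions and designs, all 16 libraries, a covariate for other cell types, and each library left out. Totals of 64538297 to 217925484 counts make counting error small beside the spread between mice, except for genes of few counts. Promoters came from RefSeq.

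The rule for named genes took called genes with a proper symbol and a mean of at least 1 CPM: the 12 largest changes and 8 smallest p in each direction. It added up to 4 called members of each of 35 lists (with none called, up to 2 by level), genes called in each genotype alone (there were 0), the 3 smallest interaction p with opposite signs, and App. Further genes were named, and sorted into roles, after their values were seen, and a few genes are not reported here. The comparison, its members and the lists were chosen with earlier results of these data known.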

Additional observations from a re-analysis of the deposited data

Results flagged for a closer look

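In 186 groups of 4 libraries (the called genes with a proper symbol and 11 cell type scores), 11 had 1 library far from the other 3, by Dixon's ratio of the gap to the nearest library over the group's range. Chance gives this in about 1 of 20 groups. Among the called genes WT_HFD 2 was the low library of its group for Cybrd1 (gap 0.931 of the range), Islr2 (0.905) and Spns2 (0.879). WT_NCD 11 was the low one for Gpt2 (0.909) and Pdxk (0.872). App_HFD 559 was the low one for Gpd1 (0.976). Adam28 had 1 library with any count in WT_NCD, which was WT_NCD 4 (gap 1). Among the scores, the homeostatic microglia score was high in WT_NCD 4 (0.846), the lymphocyte and neutrophil score was high in WT_HFD 16 (0.904), the astrocyte score was low in App_HFD 547 (0.868) and the erythroid score was low in App_HFD 561 (0.856).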

How the results depend on the processing

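The shared diet effect, with 58 genes called, gave 325 with DESeq2, 323 with limma-voom, 35 with no filter (more genes tested), 9 with all 16 libraries, 139 without WT_HFD 2 and 16, 19 without WT_NCD 4 and WT_HFD 16, 25 with no genotype block, 0 with the other-cell component as covariate, and 283 at an unadjusted p with a 2-fold change. It gave 56, 45, 60, 54 and 57 with RLE scaling, library totals, a minimum of 10 counts, non-robust dispersions and the mean of the within-genotype effects. Leaving out 1 library gave 4 to 308 genes for the shared effect, 0 to 4 for diet in wild type, 0 to 18 for diet in the knock-in and 0 for the interaction, against 0, 0 and 0 with all 15. The counts of 4 and 18 came without WT_HFD 2, and diet in the knock-in had 1 without App_NCD 537 and 7 without App_HFD 559. DESeq2 called 49, 116 and 6 for these. The cause of these differences was not tested. Thap2 changed sign with all 16 libraries, at -0.0395 (edgeR adjusted p = 0.978), and the other called genes kept theirs in the alternatives run, which their selection on the same libraries makes likely. No paired analysis was possible because the groups have no replicate numbers in common. Scaling moved the median log2 fold change of all genes by less than 0.01. Limits are the 3 libraries in App_NCD, the greater depth of control-diet libraries, the missing batch and hour of sampling, and RNA of other cells that moved with diet.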
